A study of Mus musculus with 9 samples.

Results

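Integrin subunits, laminin chains and the proteins that join them to the basement membrane or to the cytoskeleton were followed in mouse primary myoblasts and in the myotubes they form. The members were chosen by name: every gene whose symbol is that of an integrin alpha or beta subunit or of a laminin chain, and 10 partners, namely fibronectin (Fn1), the nidogens (Nid1, Nid2), perlecan (Hspg2), agrin (Agrn), sarcospan (Sspn), vinculin (Vcl), the talins (Tln1, Tln2) and melusin (Itgb1bp2). They came to 45 of the 19938 genes that a probe set named alone, and all 45 were among the 16582 genes tested. There were 25 integrins (17 alpha and 8 beta subunits), 10 laminin chains, 5 partners in the matrix and 5 at the membrane or in the cytoplasm. Itgad had 2 probe sets, of which the one with the higher mean was used. A further 3 probe sets that named Itgam together with Rpl35 were left out.

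The study measured total RNA with Affymetrix arrays at 3 times, with 3 arrays at each. The groups were cycling myoblasts (0 hr), and myotubes kept for 2 or for 5 days in a medium that the titles call differentiating. All 9 samples were primary cells of the strain Balb/c, wild type, taken from skeletal muscle; the age of the mice is not given. The growth protocol gives every sample the same medium with serum and bFGF, so the change of medium rests on the titles. No label says whether the 3 samples of a time came from separate cultures or animals, so the p-values below speak of the spread among these arrays alone, and that spread may be technical.

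Integrins are receptors made of an alpha and a beta subunit that span the cell membrane, and the alpha subunit largely sets which matrix protein the pair holds. Laminins are trimers of an alpha, a beta and a gamma chain that assemble into the sheet of the basement membrane, where nidogens and perlecan tie them to collagen IV. In skeletal muscle the alpha7 beta1 integrin and the dystroglycan complex are the known anchors between laminin outside the fibre and actin inside it, with talin and vinculin on the cytoplasmic side.

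Values are log2 expression values from RMA, a method that brings the arrays of a set to a common distribution. The values show that the arrays of each time were normalized together and apart from the other times, so normalization set and time cannot be told apart. Each change is therefore given in 2 forms, as deposited and after quantile normalization over all 9 arrays, called the joint scale below. A gene was called when limma gave it an adjusted p under 0.05 and a change of at least 2-fold in the same direction on both scales. RMA left many values identical within a time: 89 of the 135 SDs of the members were 0 and the highest was 0.18, so the p-values are too small and the size of the change decided most calls. Of the 45 members, 11 lay under the median of their arrays at all 3 times, 6 at some times and 28 at none. Those 11 (Itga1, Itga11, Itga2, Itga8, Itgae, Itgal, Itgax, Itgb2, Lama1, Lama3 and Lama4) had levels between 2.65 and 3.85, and none of them was called in any comparison. Their levels are not shown to lie above background.

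The myotubes had lower levels of several matrix genes and of the beta4 integrin subunit, and higher levels of the muscle protein melusin. At day 2 against cycling myoblasts, 4 of the 45 members rose (Itgb1bp2, Itgb6, Itgam and Itga4), while 6.04% of all tested genes were called higher. In the same comparison 6 members fell (Itgb4, Lamb1, Fn1, Nid1, Agrn and Lama5), beside 8.41% of all genes called lower. On the joint scale alone 7 rose and 6 fell. The shares above are for both scales, and the share of all genes on that scale alone is not given here. At day 5 against cycling myoblasts 1 member rose (Itgb1bp2), with 4.44% of all genes called higher, and 6 fell (Itgb4, Lamb1, Fn1, Itga3, Nid1 and Agrn), with 12.3% of all genes called lower. As deposited alone 1 rose and 15 fell, and on the joint scale alone 5 rose and 6 fell. The counts over all genes in these settings stand below, where the dependence on the processing is described. Between day 5 and day 2, limma called 0 members higher, with 0.766% of all genes called higher. At an unadjusted p under 0.05 on both scales and no minimum fold, 4 members were higher at day 5. Because most SDs were 0, that p passes nearly any difference, so such counts here and below mostly repeat the signs. Without a p limit, 4 members and 3133 of the 16582 tested genes were higher on both scales at day 5. In that comparison 7 members fell (Fn1, Itga6, Itgb1bp2, Itga4, Nid2, Lamb1 and Itga3), with 3.67% of all genes called lower. The 3 comparisons share their arrays, so the lists are not independent of each other. As the samples are bulk RNA, fewer cells of a type and less RNA per cell cannot be told apart.

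**Figure D1:**
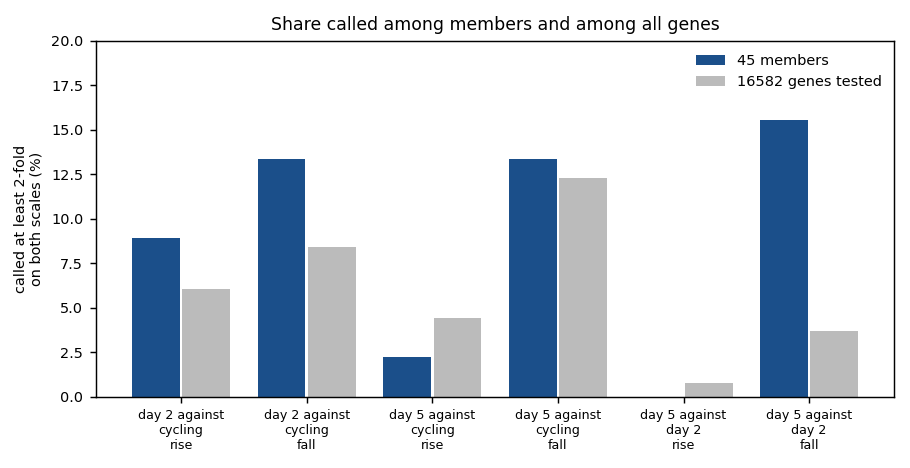
Percent of the 45 members (dark bars) and of the 16582 tested genes (grey bars) called at least 2-fold higher or lower on both scales, for each comparison and direction. The dark bar stands above the grey one in 4 of the 6 pairs, with the widest gap for falls at day 5 against day 2 (7 of 45 members against 3.67% of genes). It stands below for rises at day 5 against cycling myoblasts (1 of 45 against 4.44%). For rises at day 5 against day 2 there is no dark bar (0 of 45 against 0.766%).

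The middle of the members' changes depended on the scale. At day 2 against cycling myoblasts the median log2 fold change of the members was 0.19 as deposited and 0.21 on the joint scale, against -0.01 and 0.09 over all tested genes. For day 5 against cycling myoblasts it was -0.28 and 0.10, against -0.37 and 0.17 over all genes, and for day 5 against day 2 it was -0.50 and -0.08, against -0.40 and 0.06. The scales gave opposite signs for 7 of the 45 members (2032 of all tested genes) at day 2 against cycling myoblasts. They did so for 10 members (4503 genes) at day 5 against cycling myoblasts and for 15 members (5923 genes) at day 5 against day 2. No member with opposite signs could be called in the comparison concerned.

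**Figure D2:**
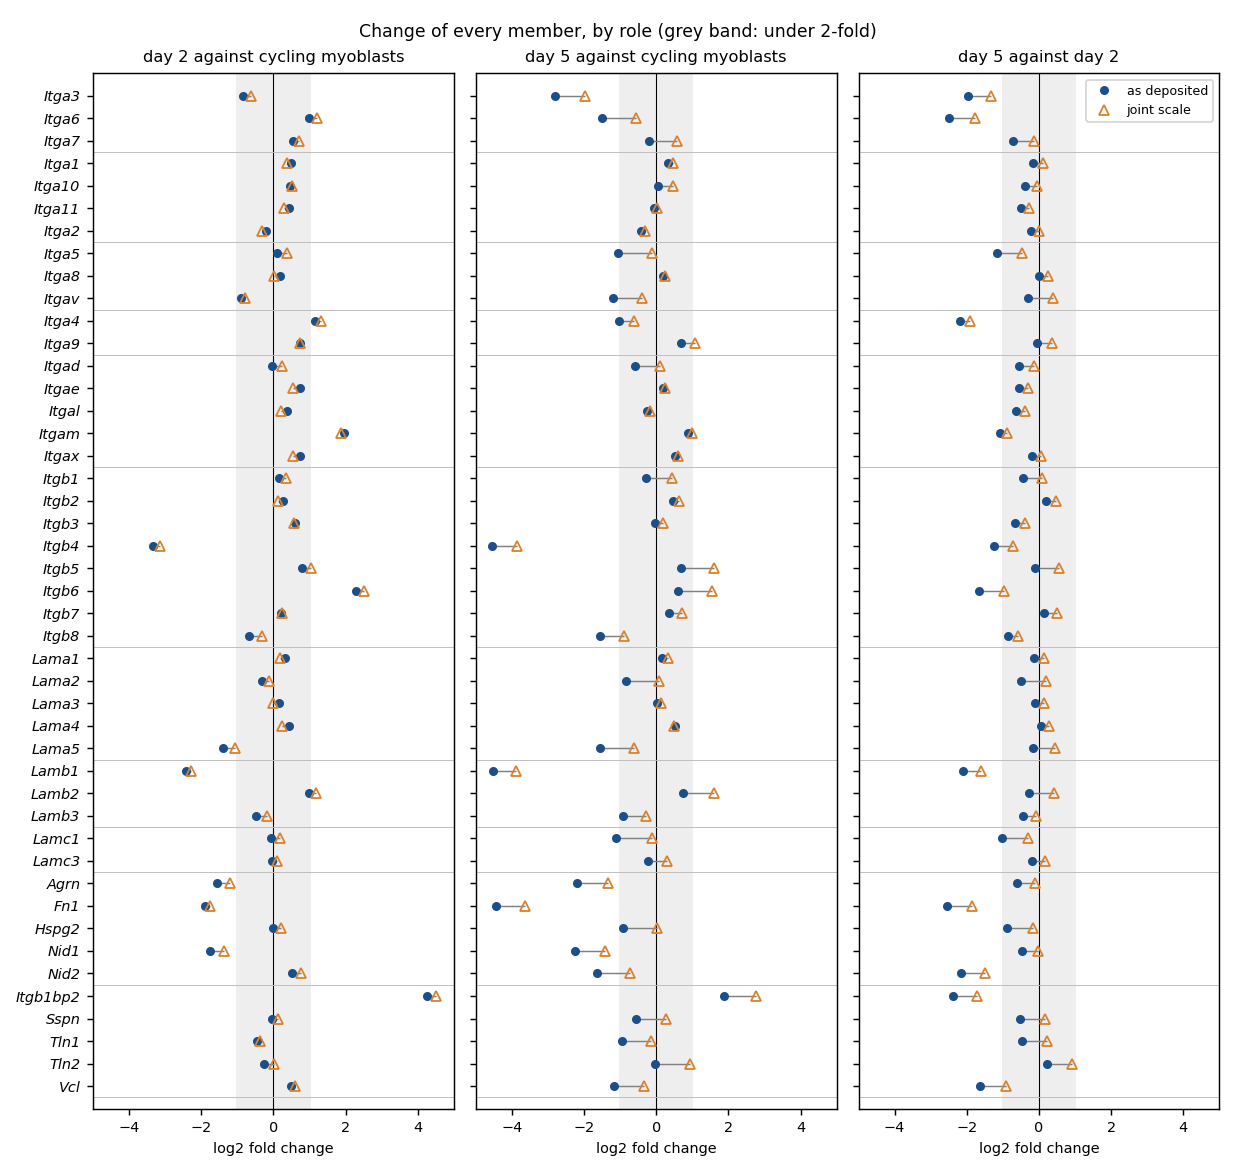
Log2 fold change of each of the 45 members, ordered by role, as deposited (filled circles) and on the joint scale (open triangles), with a panel for each of the 3 comparisons; the grey band marks changes under 2-fold. In the panels against cycling myoblasts the members farthest from 0 are Itgb1bp2 to the right and Itgb4, Lamb1 and Fn1 to the left. At day 5 against day 2 Itgb1bp2 lies to the left (-2.39 and -1.73). In the panels with day 5 the triangles lie to the right of the circles, except that of Lama4 at day 5 against cycling myoblasts (0.50 against 0.51).

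The beta4 subunit showed the largest fall among the 25 integrins against cycling myoblasts, at day 2 and at day 5. Itgb4, which pairs with alpha6 in the hemidesmosomes of epithelia, had log2 levels of 9.22, 9.27 and 9.22 in cycling myoblasts, 5.91 on all 3 arrays of day 2 and 4.67 on all 3 arrays of day 5. Cycling myoblasts were the high group. The log2 fold change at day 2 against cycling myoblasts was -3.33 as deposited and -3.13 on the joint scale, 10.0-fold and 8.78-fold lower, with an adjusted p from limma of 7.77e-14 as deposited. At day 5 it was -4.57 and -3.87 against cycling myoblasts. Between day 5 and day 2 the difference of -1.24 as deposited shrank to -0.73 on the joint scale and was not called. The 4 epithelial markers examined (Krt5, Krt14, Epcam and Cdh1) lay under the median of their arrays at all 3 times, at levels of 2.92 to 3.99. Limma called 0 of them in any comparison; at an unadjusted p under 0.05 on both scales 3 were higher and 1 was lower at day 2 against cycling myoblasts.

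Among the other laminin-binding subunits, Itga3 and Itga6 were called. Itga6, the alpha partner of both beta1 and beta4, had 7.25, 7.28 and 7.25 in cycling myoblasts, 8.24, 8.24 and 8.27 at day 2, and 5.75 on each array of day 5. Day 2 was thus the high group and day 5 the low one. Itga6 fell at day 5 against day 2, with log2 fold changes of -2.50 as deposited and -1.77 on the joint scale (5.64-fold and 3.40-fold). Its difference at day 2 against cycling myoblasts stopped just short of the call, at 0.99 as deposited (1.99-fold) and 1.21 on the joint scale (2.32-fold). Without replicate 2 of cycling myoblasts it was 1.00 as deposited and passed the call. Itga3, an alpha subunit that binds the laminins of epithelia, had 7.69, 7.94 and 7.83 in cycling myoblasts, 6.99 on each array of day 2 and 5.01 on each array of day 5. It fell at day 5 against cycling myoblasts (-2.81 as deposited, -1.97 on the joint scale) and against day 2 (-1.97 and -1.34). At day 2 against cycling myoblasts its difference was -0.83 and -0.63, under 2-fold.

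Itga7, the main laminin-binding alpha subunit of muscle, was not called in any comparison. Its levels were 9.52, 9.75 and 9.64 in cycling myoblasts, 10.17 on all 3 arrays of day 2, and 9.47, 9.42 and 9.42 at day 5. The difference at day 2 against cycling myoblasts was 0.53 as deposited and 0.70 on the joint scale. In day 5 myotubes it was -0.20 as deposited and 0.57 on the joint scale, so its direction rests on the scale. Itgb1, the beta subunit that most of the alpha subunits listed here pair with, had 10.20, 10.31 and 10.20 in cycling myoblasts, 10.40 on each array of day 2, and 9.86, 10.00 and 10.00 at day 5. Its differences stayed between -0.44 and 0.44 over the 3 comparisons and both scales, and its direction at day 5 too changed with the scale.

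Among the integrins that rose, Itgb6 is the beta subunit that pairs with alphav, binds the latent form of TGF-beta and is best known from epithelia. Its levels were 6.74, 6.87 and 6.80 in cycling myoblasts, 9.08 on each array of day 2, and 7.35, 7.45 and 7.43 at day 5. Day 2 was the high group on both scales. The log2 fold change at day 2 against cycling myoblasts was 2.28 (SE 0.0386) as deposited and 2.50 (SE 0.0276) on the joint scale, 4.84-fold and 5.65-fold higher. The difference in day 5 myotubes was 0.61 as deposited and 1.54 on the joint scale against cycling myoblasts, and -1.67 and -0.96 against day 2, just under 2-fold on the second scale, so neither was called.

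Itga4 encodes the alpha subunit that binds Vcam1 and fibronectin. It had 4.78 on each array of cycling myoblasts, 5.94 on each array of day 2, and 3.64, 3.95 and 3.64 at day 5, where it lay under the median of the arrays. It rose at day 2 against cycling myoblasts by 1.16 as deposited and 1.30 on the joint scale, with an adjusted p from limma of 6.91e-06 as deposited, the largest of the called members in that comparison. It fell at day 5 against day 2, at -2.19 as deposited and -1.92 on the joint scale, 4.56-fold and 3.78-fold. Its difference between day 5 and cycling myoblasts, -1.03 as deposited and -0.61 on the joint scale, was not called.

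The RefSeq promoter windows of GRCm38.p6 held 28 of the 45 members, in 33 windows of the 250 bases before a start. They were searched on both strands for the E-boxes CAGCTG and CACCTG, which are bound by the MyoD family of muscle transcription factors; CAGCTG reads the same on both strands and the motifs do not match each other. Of all 32851 windows 13.0% held CAGCTG, 17.2% held CACCTG and 27.7% held either. Of the 33 windows of the members 5 held CAGCTG, 8 held CACCTG and 11 held either, which belonged to 10 of the 28 members. Among the called members in these windows, Itgb6, Itga4, Itga3 and Lama5 held an E-box and Itgam, Lamb1, Nid1 and Agrn held none. The other called members, Itgb1bp2, Itgb4, Fn1, Itga6 and Nid2, had no window and were not searched. The windows of Itgb6 (the one of its 2 starts that holds a motif, chr2:60673694-60673943, minus strand) and of Itga4 (chr2:79255176-79255425, plus strand) are shown because they are the windows with a motif among the genes that rose at day 2, where Itgam rose without one, with the E-box in capitals, 60 and 125 bases before the start. A match describes the letters and not a bound site.
Itgb6: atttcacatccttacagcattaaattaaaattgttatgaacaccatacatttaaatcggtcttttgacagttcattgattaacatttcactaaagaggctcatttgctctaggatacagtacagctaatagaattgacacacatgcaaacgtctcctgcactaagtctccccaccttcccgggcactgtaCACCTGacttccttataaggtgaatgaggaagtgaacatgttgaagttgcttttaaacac
Itga4: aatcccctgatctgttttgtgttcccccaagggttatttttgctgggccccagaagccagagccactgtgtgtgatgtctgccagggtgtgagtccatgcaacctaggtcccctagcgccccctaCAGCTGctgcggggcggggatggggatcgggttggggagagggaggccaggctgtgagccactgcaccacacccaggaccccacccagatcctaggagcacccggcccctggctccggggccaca

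Itgam, the alpha subunit of a receptor of macrophages and neutrophils, had 2.73 on each array of cycling myoblasts, at or below the 30th percentile of the arrays. It had 4.69 on each array of day 2 and 3.62 on each array of day 5, the last under the median. Its rise at day 2 against cycling myoblasts, 1.96 as deposited and 1.86 on the joint scale, thus starts from a level not shown to lie above background. The other leukocyte alpha subunits, Itgad, Itgae, Itgal and Itgax, and the beta subunit of that family, Itgb2, were not called. Of 6 leukocyte markers (Ptprc, Cd68, Adgre1, Csf1r, Cd3e and Cd79a), the number under the median of the arrays was 5 in cycling myoblasts, 6 in day 2 myotubes and 5 in day 5 myotubes. Their summed log2 level was 20.05 in cycling myoblasts, 21.41 to 21.47 at day 2 and 19.74 at day 5. Limma called 0 of the 5 that were tested; at an unadjusted p under 0.05 on both scales 3 were higher and 2 lower at day 2 against cycling myoblasts. Their part in the Itgam result was not tested.

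The remaining alpha subunits were not called. Itgav, which binds vitronectin and other proteins with an RGD motif, had 8.62, 8.85 and 8.80 in cycling myoblasts, 7.83, 7.86 and 7.86 at day 2, and 7.53, 7.53 and 7.58 at day 5. Its difference against cycling myoblasts was -0.91 as deposited and -0.78 on the joint scale at day 2, and -1.21 and -0.40 at day 5. Itga5, the alpha subunit of the classical fibronectin receptor, had 6.59 on each array of cycling myoblasts, 6.68 on each array of day 2 and 5.53 on each array of day 5, a difference of -1.07 as deposited and -0.11 on the joint scale at day 5 against cycling myoblasts. Itga9, which binds tenascin C, had 3.73 on each array of cycling myoblasts, under the median, then 4.48 at day 2 and 4.41 at day 5; its difference at day 5 was 0.68 as deposited and 1.08 on the joint scale. The collagen receptors Itga1, Itga2, Itga10 and Itga11 had no call, and Itga10 alone among them reached the median of the arrays, at days 2 and 5.

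Of the remaining beta subunits, Itgb5, another partner of alphav, passed 2-fold on the joint scale only. It had 7.07, 7.13 and 7.13 in cycling myoblasts, 7.89 on each array of day 2 and 7.78 on each array of day 5. Its mean was higher in both groups of myotubes than in cycling myoblasts on both scales. Its difference against cycling myoblasts was 0.78 as deposited and 1.03 on the joint scale at day 2, and 0.67 and 1.59 at day 5. Itgb8, a partner of alphav as well, had 5.62, 5.63 and 5.63 in cycling myoblasts, 4.93, 4.95 and 4.95 at day 2, and 4.07 on each array of day 5. The difference at day 5 against cycling myoblasts was -1.55 as deposited and -0.90 on the joint scale. Itgb3 and Itgb7 lay under the median at 2 of the 3 times each and had differences between -0.65 and 0.72.

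**Figure D3:**
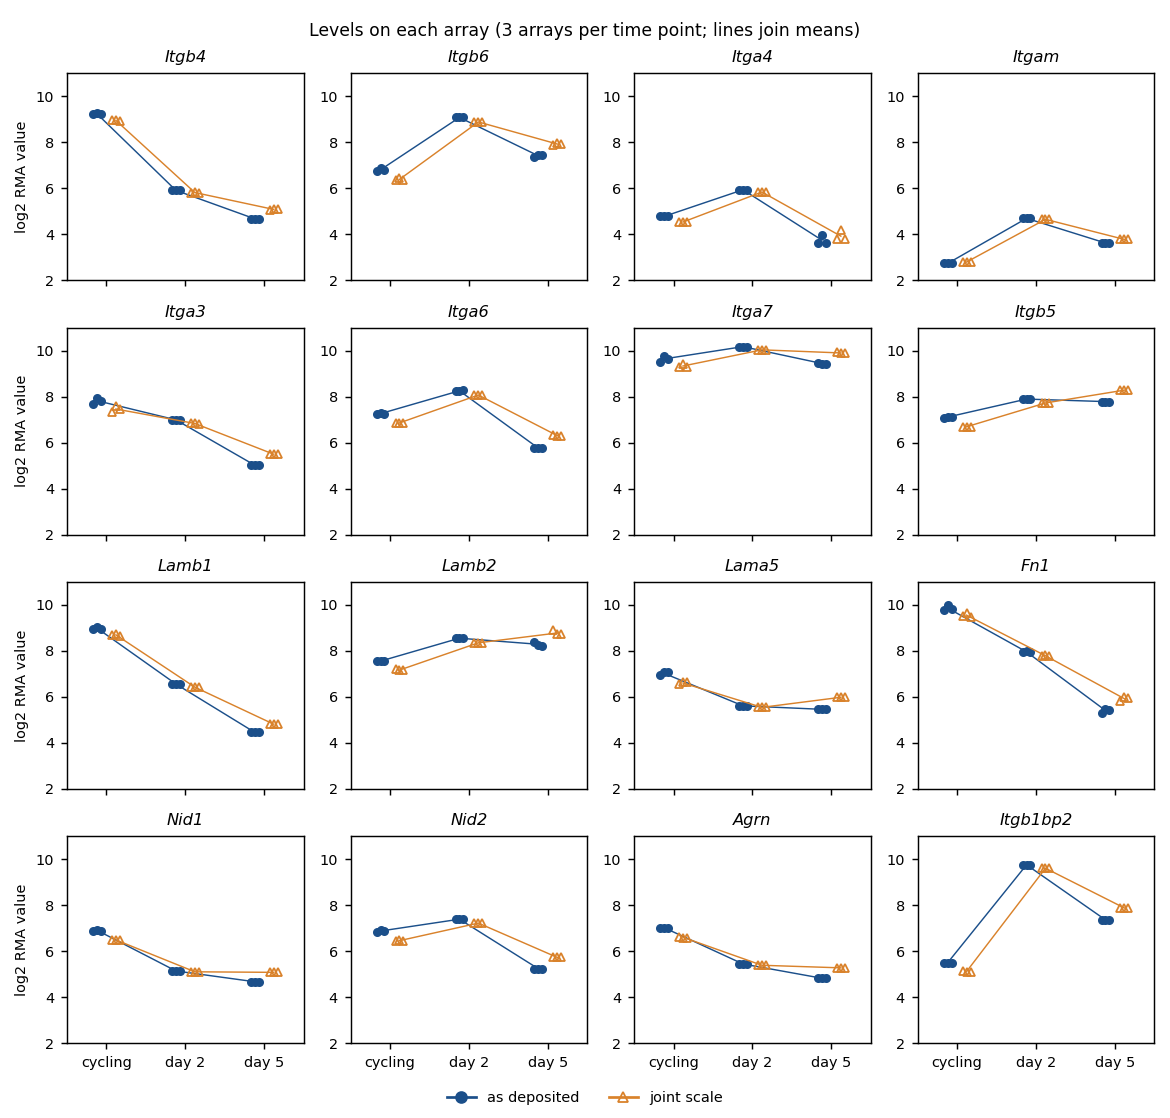
Log2 RMA value on each array for 16 members, with the times along the horizontal axis, as deposited (filled circles) and on the joint scale (open triangles); lines join the means of 3 arrays. Itgb4, Lamb1 and Fn1 step down at each time, Itgb6 and Itgb1bp2 are highest at day 2, and Itgb5 and Lamb2 are higher in both groups of myotubes than in cycling myoblasts.

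The laminin beta chains differed in what they did. Lamb1, the widespread beta chain, had 8.96, 9.04 and 8.96 in cycling myoblasts, 6.56 on each array of day 2 and 4.45 on each array of day 5. It stepped down at each time on both scales. Lamb1 fell at day 2 against cycling myoblasts, with changes of -2.43 as deposited and -2.27 on the joint scale (5.39-fold and 4.83-fold). The day 5 arrays were lower again, at -4.53 and -3.88 against cycling myoblasts (23.2-fold and 14.8-fold) and -2.10 and -1.61 against day 2. Lamb2, the beta chain concentrated in the synaptic basement membrane of muscle, had 7.55 on each array of cycling myoblasts, 8.55, 8.55 and 8.54 at day 2, and 8.40, 8.24 and 8.22 at day 5. Its mean was higher in both groups of myotubes than in cycling myoblasts. The difference at day 2 was 1.00 as deposited (1.99-fold) and 1.18 on the joint scale (2.27-fold), and at day 5 it was 0.73 and 1.61, so that it missed the call in both comparisons through the deposited scale. Lamb3, the beta chain of epithelial laminin, was not called, at -0.93 as deposited and -0.28 on the joint scale at day 5 against cycling myoblasts. The windows of Lamb1 (chr12:31265043-31265292) and Lamb2 (chr9:108479612-108479861), both on the plus strand, are printed because these chains of the same position in the trimer had opposite signs; neither holds the E-boxes searched for, so no letters are in capitals.
Lamb1: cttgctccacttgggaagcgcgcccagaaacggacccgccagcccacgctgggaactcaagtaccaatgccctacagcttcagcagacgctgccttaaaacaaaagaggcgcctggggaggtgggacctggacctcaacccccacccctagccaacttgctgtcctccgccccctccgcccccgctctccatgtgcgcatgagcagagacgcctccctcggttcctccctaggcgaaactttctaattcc
Lamb2: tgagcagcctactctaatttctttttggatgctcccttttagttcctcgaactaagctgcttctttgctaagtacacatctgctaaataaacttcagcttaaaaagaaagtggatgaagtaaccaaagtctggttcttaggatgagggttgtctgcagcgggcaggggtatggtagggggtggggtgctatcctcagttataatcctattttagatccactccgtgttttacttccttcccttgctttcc

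Among the laminin alpha chains only Lama5 was called, and only at day 2. Lama5, a chain of many basement membranes, had 6.94, 7.07 and 7.07 in cycling myoblasts, 5.61 on each array of day 2 and 5.46 on each array of day 5. It fell at day 2 against cycling myoblasts (-1.41 as deposited, -1.06 on the joint scale), close to the 2-fold limit on the second. Its difference in day 5 myotubes was -1.56 as deposited and -0.62 on the joint scale. Lama2, the alpha chain of the laminin around adult muscle fibres, had 7.69, 7.72 and 7.70 in cycling myoblasts, 7.37 on each array of day 2 and 6.87 on each array of day 5. Its difference at day 5 against cycling myoblasts was -0.83 as deposited and 0.09 on the joint scale, so its direction rests on the scale. The gamma chain Lamc1 had 7.19, 7.28 and 7.28 in cycling myoblasts, 7.18 on each array of day 2, and 6.15, 6.12 and 6.15 at day 5, with a difference of -1.11 and -0.13 at day 5 against cycling myoblasts. Lama1, Lama3 and Lama4 lay under the median at all times, and Lamc3 had differences between -0.24 and 0.29.

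Of the 5 matrix partners, 3 fell at day 2 and 3 at day 5 against cycling myoblasts, beside 8.41% and 12.3% of all tested genes. Fibronectin, Fn1, a matrix protein that binds the alpha5 and alpha4 integrins, had 9.77, 9.98 and 9.83 in cycling myoblasts, 7.94, 7.98 and 7.94 at day 2, and 5.31, 5.48 and 5.44 at day 5. The levels stepped down at each time. Fn1 fell at day 2 against cycling myoblasts, with changes of -1.91 as deposited and -1.76 on the joint scale (3.75-fold and 3.40-fold). It fell at day 5 against cycling myoblasts (-4.45 and -3.63, 21.9-fold and 12.4-fold) and against day 2 (-2.55 and -1.87, 5.85-fold and 3.65-fold).

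The nidogens link laminin to collagen IV. Nid1 had 6.90, 6.93 and 6.90 in cycling myoblasts, 5.15, 5.15 and 5.12 at day 2, and 4.67 on each array of day 5. It fell against cycling myoblasts at day 2 (-1.77 as deposited, -1.39 on the joint scale) and at day 5 (-2.24 and -1.41). Nid2 had 6.83, 6.92 and 6.88 in cycling myoblasts, 7.39 on each array of day 2 and 5.23 on each array of day 5, so that it was highest at day 2, where Nid1 was already lower than in cycling myoblasts. Nid2 fell at day 5 against day 2, at -2.16 as deposited and -1.49 on the joint scale, while Nid1 in the same comparison was at -0.47 and -0.024. The gap between the nidogens in that comparison was not itself tested.

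Agrin, which clusters acetylcholine receptors at the nerve-muscle synapse, had 7.02 on each array of cycling myoblasts, 5.44 on each array of day 2 and 4.82 on each array of day 5. Agrn fell against cycling myoblasts at day 2 (-1.58 as deposited, -1.22 on the joint scale) and at day 5 (-2.20 and -1.33). Hspg2, perlecan, had 7.57, 7.59 and 7.57 in cycling myoblasts, 7.56 on each array of day 2 and 6.67 on each array of day 5. Its difference at day 5 against cycling myoblasts was -0.91 as deposited and 0.03 on the joint scale, and it was not called.

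Markers of other cells were read beside these falls. Col3a1, a collagen of fibroblasts, had a mean level of 8.92 in cycling myoblasts, 6.06 in day 2 myotubes and 4.77 in day 5 myotubes. It fell against cycling myoblasts at day 2 (-2.87 as deposited, -2.67 on the joint scale) and at day 5 (-4.15 and -3.41). The fibroblast markers Dpt, Lum and Dcn had mean levels between 1.95 and 2.89, at or below the 30th percentile, and had higher means in both groups of myotubes than in cycling myoblasts. Pdgfra had 4.29 in cycling myoblasts, 3.67 in day 2 myotubes and 4.36 in day 5 myotubes and was not called; Ly6a was not analysed here. Only Col3a1 and Pdgfra, 2 genes of the list, were tested, so Dpt, Lum and Dcn could not be called. The summed log2 level of the 5 with a probe set was 20.21 to 20.25 in cycling myoblasts, 17.27 at day 2 and 16.49 to 16.88 at day 5. Of the 5 myoblast markers, 1 rose and 2 fell at day 2 against cycling myoblasts, beside 6.04% and 8.41% of all tested genes. At day 5 against cycling myoblasts 1 rose and 4 fell, beside 4.44% and 12.3% of all genes. Pax7, a marker of muscle stem cells and myoblasts, had a mean level of 7.88 in cycling myoblasts, 5.73 in day 2 myotubes and 4.97 in day 5 myotubes, and Myf5 had 9.14, 7.59 and 6.75. Des, desmin, rose at day 2 (1.27 as deposited, 1.48 on the joint scale) and at day 5 (1.13 and 1.69), while Cdh15, M-cadherin, was at 0.36 and 0.46 at day 2 and fell at day 5 (-1.95 and -1.10). Of the 6 genes of differentiated muscle, 6 rose at day 2 and 5 at day 5 against cycling myoblasts, beside 6.04% and 4.44% of all genes. The 5 endothelial markers were under the median at all times. The part of these cells in the falls of Fn1, Lamb1, Nid1 and Agrn was not tested.

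At the cytoplasmic face, melusin showed the largest change of all the members at day 2. Itgb1bp2 encodes this protein of striated muscle, which binds the tail of the beta1 subunit. It had 5.50 on each array of cycling myoblasts, 9.75 on each array of day 2 and 7.36 on each array of day 5. Day 2 was the high group, and both groups of myotubes were above cycling myoblasts. The rise at day 2 against cycling myoblasts was 4.26 as deposited and 4.49 on the joint scale, 19.2-fold and 22.5-fold. The rise that remained at day 5 was 1.87 and 2.76 against cycling myoblasts, 3.64-fold and 6.78-fold. Itgb1bp2 fell at day 5 against day 2, at -2.39 and -1.73, 5.26-fold and 3.31-fold.

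The general adhesion proteins were not called. Vcl had 8.30, 8.47 and 8.35 in cycling myoblasts, 8.85 on each array of day 2 and 7.21 on each array of day 5. Its difference at day 5 against day 2 was -1.64 as deposited and -0.92 on the joint scale. Tln1, the widespread talin, had 8.76, 8.96 and 8.86 in cycling myoblasts, 8.39, 8.41 and 8.39 at day 2, and 7.93 on each array of day 5, with a difference of -0.94 and -0.14 at day 5 against cycling myoblasts. Tln2, the talin prominent in striated muscle, had 6.72, 6.76 and 6.76 in cycling myoblasts, 6.47, 6.48 and 6.47 at day 2, and 6.72, 6.72 and 6.69 at day 5. On the joint scale Tln2 differed by 0.93 at day 5 against cycling myoblasts, against -0.04 as deposited. Sspn, a member of the dystrophin-associated complex, had 8.16 on each array of cycling myoblasts, 8.11, 8.11 and 8.14 at day 2 and 7.59 on each array of day 5.

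In all, 13 members were called in at least 1 comparison and 32 in none. The matching share of all tested genes was not counted, so these numbers do not set the members apart from other genes. The differences of the 32 members without a call ran from -0.91 to 1.00 as deposited and -0.78 to 1.18 on the joint scale at day 2 against cycling myoblasts. At day 5 they ran from -1.55 to 0.73 and from -0.90 to 1.61 against cycling myoblasts, and from -1.64 to 0.23 and from -0.92 to 0.92 against day 2. Day 2 had the highest mean for 23 of the 45 members as deposited and for 17 on the joint scale, which is 51.1% and 37.8%. Over all tested genes the shares were 38.8% and 24.2%. Day 5 was highest for 3 members as deposited and for 16 on the joint scale, 6.67% and 35.6%, against 13.3% and 43.6% of all tested genes.

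Genes around the members were read from 4 lists. Of 18 genes for collagens and linkers of the basement membrane, 6 fell and 2 rose at day 2 against cycling myoblasts, beside 8.41% and 6.04% of all tested genes. The median log2 fold change of the list was 0.14 as deposited and 0.08 on the joint scale there, and -0.01 and 0.27 at day 5 against cycling myoblasts. Fbln1, fibulin 1, was among the falls (-2.97 as deposited, -2.67 on the joint scale), as were Col18a1 (-2.27 and -2.04) and Col4a1, a main chain of collagen IV (-2.19 and -1.88). Frem2 (2.35 and 2.39) and Fras1 (1.91 and 1.93), extracellular matrix proteins that act in one complex in the skin, rose at day 2. Fras1 began under the median of the arrays. In day 5 myotubes 6 of the list fell against cycling myoblasts and 0 rose by limma, beside 12.3% and 4.44% of all genes; at an unadjusted p under 0.05 on both scales 7 were higher and 7 lower. Pxdn, the enzyme that cross-links collagen IV, was at -3.68 and -3.12 there, and its day 5 level lay under the median of the arrays. Against day 2 they had 3 falls (Pxdn, Fras1 and Frem2) and 0 rises, beside 3.67% and 0.766% of all genes, while 2 were higher and 7 lower at an unadjusted p under 0.05 on both scales.

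Of 16 tested of 20 listed other ligands of integrins, 4 fell and 1 rose at day 2 against cycling myoblasts, beside 8.41% and 6.04% of all tested genes. In day 5 myotubes 6 fell and 1 rose against cycling myoblasts, beside 12.3% and 4.44% of all genes. Against day 2 they had 4 falls and 0 rises, beside 3.67% and 0.766% of all genes, and there 2 were higher and 8 lower at an unadjusted p under 0.05 on both scales. The median of this list against cycling myoblasts was -0.15 as deposited and 0.01 on the joint scale at day 2, and -0.35 and -0.09 at day 5. Vcam1, the cell-surface ligand of the alpha4 integrin, had a mean level of 9.31 in cycling myoblasts, 5.63 in day 2 myotubes and 4.10 in day 5 myotubes. It fell against cycling myoblasts at day 2 (-3.68 as deposited, -3.46 on the joint scale) and at day 5 (-5.21 and -4.68). At day 2, where Vcam1 was already lower, Itga4 was higher than in cycling myoblasts. Tnc, the alpha9 ligand tenascin C, fell at day 2 (-3.30 and -3.07) and at day 5 (-5.30 and -4.86), the last to a level under the median of the arrays. Emilin1 fell at day 2 against cycling myoblasts (-2.07 as deposited, -1.70 on the joint scale). Thbs1 fell at day 5 against cycling myoblasts (-3.46 and -2.62) and against day 2 (-2.27 and -1.56). Jam2, an adhesion molecule of the immunoglobulin family, rose by 1.68 and 1.89 at day 2 and by 1.03 and 1.83 at day 5.

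A list of 14 symbols, of which 9 were tested, held dystroglycan, other laminin receptors that are not integrins, and proteins that join or modify dystroglycan, such as dystrophin and the sarcoglycans. At day 2 against cycling myoblasts 3 rose and 0 fell, beside 6.04% and 8.41% of all tested genes, with 6 higher and 2 lower at an unadjusted p under 0.05 on both scales. The median of the list against cycling myoblasts was 0.42 as deposited and 0.53 on the joint scale at day 2, and 0.15 and 0.54 at day 5. Dmd, dystrophin, had 4.23 on each array of cycling myoblasts, under the median, 7.84 on each array of day 2, and 6.27, 6.28 and 6.47 at day 5. It rose against cycling myoblasts by 3.61 as deposited and 3.57 on the joint scale at day 2 and by 2.11 and 2.80 at day 5. Bcam, a laminin receptor of the immunoglobulin family, rose by 2.55 and 2.77 at day 2 and by 3.01 and 3.88 at day 5. Dag1, dystroglycan, rose by 1.50 and 1.69 at day 2. In day 5 myotubes 2 rose and 0 fell against cycling myoblasts, beside 4.44% and 12.3% of all genes, with 5 higher and 3 lower at the unadjusted p. Against day 2 they had 1 fall, utrophin (Utrn, -1.97 and -1.23), and 0 rises, beside 3.67% and 0.766% of all genes, with 2 higher and 3 lower at the unadjusted p.

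Among 20 tested of 22 listed integrin activators and adaptors, 1 rose and 2 fell at day 2 against cycling myoblasts, beside 6.04% and 8.41% of all tested genes. In day 5 myotubes 0 rose and 3 fell against cycling myoblasts, beside 4.44% and 12.3% of all genes, with 4 higher and 9 lower at an unadjusted p under 0.05 on both scales. Between day 5 and day 2 limma called 0 in either direction, beside 0.766% of all genes called higher and 3.67% called lower. At the unadjusted p 2 of the list were higher and 11 lower there. The median of the list against cycling myoblasts was -0.22 as deposited and -0.02 on the joint scale at day 2, and -0.73 and 0.20 at day 5. Zyx, zyxin, an adaptor of focal adhesions and stress fibres, fell at day 2 (-1.87 as deposited, -1.76 on the joint scale) and at day 5 (-3.25 and -2.40). Tgfb1i1, the paxillin relative Hic-5, fell at day 2 (-1.40 and -1.03) and at day 5 (-2.61 and -1.93), and paxillin itself (Pxn) fell at day 5 (-1.94 and -1.04). Lims2 (PINCH2), an adaptor of integrin-linked kinase, rose by 1.17 and 1.13 at day 2, beginning under the median.

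**Figure D4:**
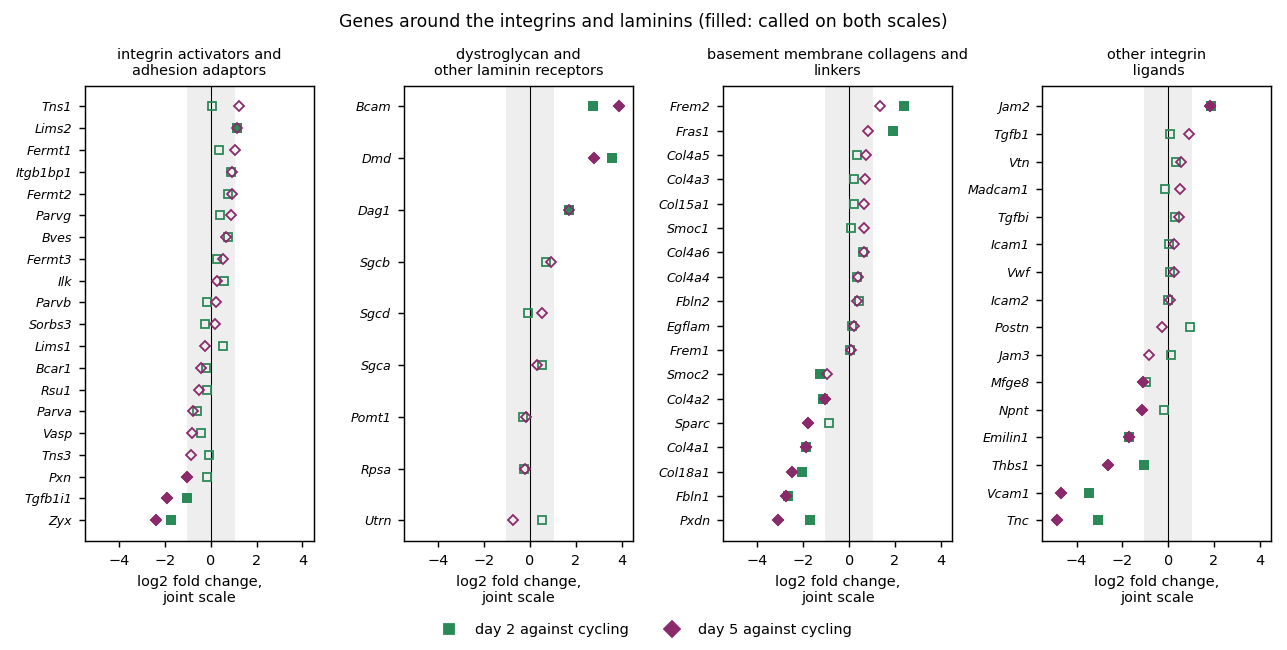
Log2 fold change on the joint scale for each tested gene of the 4 lists, at day 2 (squares) and at day 5 (diamonds) against cycling myoblasts; filled symbols were called on both scales and the grey band marks changes under 2-fold. Vcam1 and Tnc lie farthest to the left, and Bcam and Dmd farthest to the right.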

How the data were processed

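Per the labels' protocols, total RNA was labelled with biotin and run on Affymetrix arrays; the deposited log2 values came from RMA, per the submitters' processing notes, with its version not given in the sources used here. Per the design text, RMA was run per replicate set. Sorted values differed by at most 0.0251 on average between arrays of 1 time and by at least 0.188 between times, so the set was the time. Of 35556 probe sets, the platform annotation named 1 gene for 21789, several for 1621 and none for 12146; 21698 matched RefSeq (GRCm38.p6) by gene identifier and 0 symbols changed. The highest-mean probe set stood for each of 19938 genes, and 16582 lay above the 30th percentile of the array on at least 3 arrays. All 9 arrays entered a linear model in limma 3.58.1 (R 4.3.3), with Benjamini-Hochberg adjustment over all tested genes, as deposited and after quantile normalization over the 9 arrays. The fit was tested on simulated data. Members with a call in at least 1 comparison are given with the values of all arrays. From each list and comparison up to 3 called rises and 3 called falls with the largest change were picked, but not all are named. Other genes were singled out after their values were seen. The members and lists were chosen with earlier results of these data known. Other scales, filters, probe set rules, a trended fit, a replicate block and leaving out each array were tried. The number of arrays limits the precision, and 0 value columns went unused.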

Additional observations from a re-analysis of the deposited data

How the results depend on the processing

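The called members, 10 at day 2 and 7 at day 5 against cycling myoblasts and 7 at day 5 against day 2, kept their call and direction under every alternative tried. For either scale alone this was fixed in advance, because the call already asks for both scales. The mean of all probe sets could not alter the called members' values, because each had 1 probe set. The filters, the trended fit and the replicate block left the fold changes as they were. Leaving out an array kept the joint-scale values made from all 9 arrays, and replicate values were often identical. These settings therefore tested the calls little. The scale added calls. On the joint scale alone 7 members rose at day 2 against cycling myoblasts, Itga6, Itgb5 and Lamb2 being added. The count over all genes in that setting is not given here. At day 5 against cycling myoblasts 16 members were called as deposited alone (15 falls; this setting was chosen after seeing the data), 11 on the joint scale alone (5 rises, 6 falls) and 15 after subtracting each array's median (5 rises, 10 falls). Over all genes these were 5576 (736 rises, 4840 falls), 4000 (1960 rises, 2040 falls) and 4749 (1413 rises, 3336 falls), against 2776 (736 rises, 2040 falls) on both scales. At day 5 against day 2, 13 members were called as deposited alone, all falls, and over all genes 2675 (2548 falls) as deposited alone, 461 rises on the joint scale alone, and 1521 (234 rises, 1287 falls) after median subtraction, against 736 (127 rises, 609 falls) on both. Leaving out each array in turn gave 10 to 11 members at day 2, where Itga6 was added without replicate 2 of cycling myoblasts, and 7 in each of the other comparisons. Without replicate 1 or replicate 3 of day 5 the difference of Itga4 at day 5 against cycling myoblasts fell under 2-fold as deposited, at -0.98. The replicate block gave 10, 7 and 7 members and changed no call. Deviations of samples with the same number correlated at -0.04 to 0.11 over 9 pairs, and those with different numbers at -0.15 to 0.16 over 18. Many values are identical within a time, so these correlations cannot show whether the numbers pair the samples. No label says that they do. Signs that turned from the deposited scale, all uncalled, were the following. On the joint scale they were, at day 2 against cycling myoblasts, Hspg2 0.20, Itgad 0.23, Lama3 -0.0034, Lamc1 0.17, Lamc3 0.11, Sspn 0.13 and Tln2 0.014. At day 5 against cycling myoblasts they were Hspg2 0.032, Itga11 0.028, Itga7 0.57, Itgad 0.10, Itgb1 0.44, Itgb3 0.18, Lama2 0.086, Lamc3 0.29, Sspn 0.28 and Tln2 0.93. At day 5 against day 2 they were Itga1 0.10, Itga8 0.25, Itga9 0.35, Itgav 0.37, Itgax 0.052, Itgb1 0.085, Itgb5 0.56, Lama1 0.14, Lama2 0.20, Lama3 0.13, Lama5 0.44, Lamb2 0.43, Lamc3 0.18, Sspn 0.15 and Tln1 0.22. After median subtraction they were, at day 2 against cycling myoblasts, Hspg2 0.057, Itgad 0.036, Lamc1 0.0017, Lamc3 0.046 and Sspn 0.038; at day 5 against cycling myoblasts, Itga11 0.28, Itga7 0.15, Itgal 0.094, Itgb1 0.074, Itgb3 0.31, Lamc3 0.12 and Tln2 0.32. At day 5 against day 2 they were Itga1 0.11, Itga2 0.051, Itga8 0.27, Itga9 0.21, Itgax 0.075, Itgb5 0.17, Lama1 0.14, Lama3 0.15, Lama5 0.13, Lamb2 0.013 and Lamc3 0.071. Itgad at day 2 against cycling myoblasts was 0.26 with the mean of its probe sets and between -0.062 and 0.0048 when arrays were left out in turn. The cause of these changes was not tested. Signal near background limits the 11 members under the median at all times.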

Other observations

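Different genes often held exactly the same value on an array. To 5 decimals, 55.3% to 63.5% of the tested genes in cycling myoblasts shared their value with another tested gene on the same array. At day 2 the share was 69.4% to 69.8% and at day 5 it was 70.2% to 73.3%. Of the 45 members, 25 to 27 shared a value on an array of cycling myoblasts, 29 to 31 on an array of day 2 and 34 to 35 on an array of day 5. Itgb4 and Nid1 were both at 4.67 on all 3 arrays of day 5, and Itga1, Itgb2 and Lama3 were all at 3.30 in cycling myoblasts.

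Among the markers of other cells, S100b of Schwann cells had a rise of 1.43 as deposited and 1.28 on the joint scale at day 2 against cycling myoblasts, from a level at or below the 30th percentile.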
